A study of Mus musculus with 17 samples.

Results

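This account concerns 7 complement genes measured by RNA-seq in mouse hippocampus, namely the C1q chains C1qa, C1qb and C1qc, the components C4b and C3, and the receptors C3ar1 and C5ar1. They were chosen by name as components and receptors of one pathway, not by a threshold on their values. All 7 were found by symbol among the 55450 genes counted, and all 7 passed the filter on low counts that left 17615 genes for testing. Complement is a cascade of secreted proteins of innate immunity. In the classical pathway the C1q complex, built from A, B and C chains, binds its target and sets off cleavage of C4 and then of C3, and the small fragments C3a and C5a act on myeloid cells through C3aR1 and C5aR1. In brain, C1q is made mostly by microglia, C4 is made by astrocytes among other cells, and C1q and C3 are known for tagging synapses that microglia remove.

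The 17 libraries came from hippocampi of adult mice, which the study's methods give as C57BL/6J wild-type animals. In the epileptic groups kainic acid, which activates glutamate receptors, was injected into the right amygdala, where it brings on status epilepticus and later spontaneous seizures, and the control group is described as sham. All 3 groups then received a pair of AAV9 viruses, targeted per the methods to the right ventral hippocampus, carrying dCas9-VP64 (a cutting-dead Cas9 fused to a transcriptional activator), and doxycycline food to switch it on. Its transactivator was driven by a Camk2a promoter to favour excitatory neurons, so microglia and astrocytes were not the intended targets. The guide was sgLacZ, directed at a bacterial gene, in the control sgLacZ group (n = 5) and the epileptic sgLacZ group (n = 6), and sgKcna1, directed at the promoter of a potassium channel gene, in the epileptic sgKcna1 group (n = 6).

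Between 11839240 and 28311328 reads per library fell in genes, so 3 reads corresponded to between 0.106 and 0.253 CPM (the read count scaled to library size, with TMM scaling for all gene levels), taken as the floor of detection. Counting error is all that this floor covers. In 6 of 17 libraries, 2 control sgLacZ, 1 epileptic sgLacZ and 3 epileptic sgKcna1, reads of both Xist and the Y-linked Ddx3y exceeded 1 CPM. Xist exceeded Ddx3y in 2 of 5 control sgLacZ, 4 of 6 epileptic sgLacZ and 2 of 6 epileptic sgKcna1 libraries. The share of unmapped reads ran from 11.0% to 41.5%, and the epileptic sgKcna1 replicate 12 library had both the highest share and the fewest reads. Across all tested genes, 1940 differed between epileptic sgLacZ and control sgLacZ, of which 1278 were higher and 662 lower (edgeR quasi-likelihood test, Benjamini-Hochberg adjusted over 17615 genes, threshold 0.05). No gene passed between epileptic sgKcna1 and epileptic sgLacZ or between epileptic sgKcna1 and control sgLacZ, although 3387 and 1192 genes had an unadjusted p under 0.05 and DESeq2 called 114 and 38 and limma voom 12 and 71.

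None of the 7 complement genes passed the threshold in any of the 3 comparisons. Between epileptic sgLacZ and control sgLacZ, 0 of 7 were called where 11.0% of all tested genes were, and 2 of 7, C3 and C4b, had an unadjusted p under 0.05, as did 34.7% of all genes. The CPM values of those groups did not overlap for 1 of the 7 genes, C3, as for 4.39% of all genes. Between epileptic sgKcna1 and epileptic sgLacZ the share of all genes called was 0%, and 1 of 7 members, again C3, had an unadjusted p under 0.05 against 19.2% of all genes. No member separated those groups, which 0.483% of all genes did. Between epileptic sgKcna1 and control sgLacZ, 0% of all genes were called, 0 of 7 members had an unadjusted p under 0.05 against 6.77% of all genes, and 0 of 7 did not overlap against 1.14%. The median log2 fold change of the 7 members was 0.08, -0.13 and 0.11 in these comparisons, beside 0.02, -0.01 and 0.02 over all genes.

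Their positions are given in GRCm38.p6, which mm10 denotes. C1qb (chromosome 4, 136880126 to 136886200), C1qc (136889801 to 136892936) and C1qa (136895916 to 136898844) lie next to each other. C3 (57203967 to 57228136) and C4b (34728139 to 34743902) are both on chromosome 17, C3ar1 is on chromosome 6 (122847140 to 122856157) and C5ar1 on chromosome 7 (16246743 to 16259540). Promoter sequences around the start site, from RefSeq (GRCm38.p6), were found for 5 of 7 members, the exceptions being C1qa and C4b. The promoters of C1qb and C1qc are shown because these neighbouring genes encode chains of 1 protein, and that of C3 because its level separated a pair of groups. All are on the minus strand, at chr4:136886151-136886450, chr4:136892865-136893164 and chr17:57228087-57228386. Capitals mark matches on either strand to GAGGAA (an ETS core such as PU.1 binds), to GGG and CC with any 5 bases between (a loose NF-kB form) or to TATAAA. TTC and GAA with any 3 bases between (a GAS element) and GAAA repeated after any 2 bases (an interferon response element) were searched as well.
C1qb: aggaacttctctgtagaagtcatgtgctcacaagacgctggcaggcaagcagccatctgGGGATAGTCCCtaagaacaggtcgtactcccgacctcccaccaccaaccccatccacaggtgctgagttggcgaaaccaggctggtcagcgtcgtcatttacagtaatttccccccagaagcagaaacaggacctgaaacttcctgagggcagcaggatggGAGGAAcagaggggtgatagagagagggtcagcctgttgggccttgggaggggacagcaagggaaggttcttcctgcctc
C1qc: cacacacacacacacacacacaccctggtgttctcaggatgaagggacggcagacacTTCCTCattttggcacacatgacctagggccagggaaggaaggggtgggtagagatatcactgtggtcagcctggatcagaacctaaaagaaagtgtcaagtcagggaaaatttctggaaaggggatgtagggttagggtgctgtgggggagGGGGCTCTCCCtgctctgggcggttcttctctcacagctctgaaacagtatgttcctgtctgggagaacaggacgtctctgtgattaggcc
C3: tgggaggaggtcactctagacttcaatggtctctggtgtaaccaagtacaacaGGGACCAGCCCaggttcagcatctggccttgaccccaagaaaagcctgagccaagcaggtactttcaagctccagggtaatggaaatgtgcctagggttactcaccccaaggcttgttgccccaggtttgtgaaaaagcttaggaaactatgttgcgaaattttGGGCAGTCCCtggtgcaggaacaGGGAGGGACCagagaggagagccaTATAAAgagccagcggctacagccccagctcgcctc
The C1qb and C1qc promoters each held 1 match to GAGGAA, which occurs in 28.3% of 32851 promoters of this length. In C1qb it lay 30 to 25 bases before the start, and in C1qc, on the opposite strand, 193 to 188 bases before it. The NF-kB form matched in all 3, in places as overlapping matches on both strands, and in 50.8% of all promoters. TATAAA matched in C3, 15 to 20 bases after the start, and in 13.6% of all promoters, while neither the GAS letters (8.3% of all) nor the interferon response letters (3.44% of all) matched in the 3 windows. A match is a run of letters and no evidence of binding.

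The C1q chains were the most abundant of the family. Per kilobase of the longest mm9 transcript (1040, 1088 and 1203 bases), the control sgLacZ level was 114 ± 9.08 CPM per kb for C1qa, 50.3 ± 4.93 for C1qb and 55.5 ± 2.54 for C1qc (SD, n = 5). C4b stood at 8.75 ± 1.52 CPM per kb, C3ar1 at 0.57 ± 0.15, C5ar1 at 0.45 ± 0.17 and C3 at 0.31 ± 0.04 on the same scale (SD, n = 5). The mean levels of C1qb and C1qc differed by slightly more than the SD of C1qb and by clearly more than that of C1qc. Those of C3ar1 and C5ar1 differed by less than either SD, and that of C3 lay within 1 SD of C5ar1. In epileptic sgLacZ libraries the C3 level per kb was 0.68 ± 0.17, beside 0.52 ± 0.14 for C3ar1 and 0.45 ± 0.21 for C5ar1 (SD, n = 6).

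**Figure D1:**
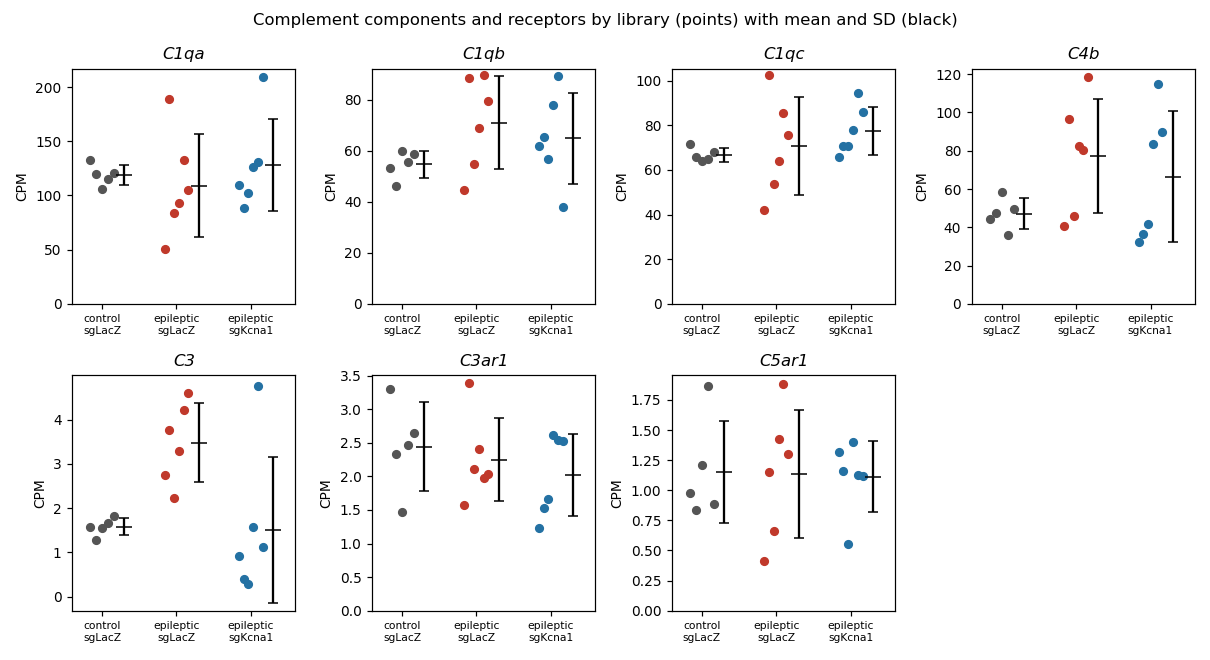
CPM (vertical axes, linear) of the 7 complement genes in each library (points) of the control sgLacZ (grey), epileptic sgLacZ (red) and epileptic sgKcna1 (blue) groups, with mean and SD in black. C3 in the epileptic sgLacZ libraries lay between 2.24 and 4.59 CPM, above every control library, whose highest value was 1.83, and the groups overlapped for every other gene in that comparison.

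C1qa, the A chain of C1q, had 132, 119.7, 106, 115 and 120.5 CPM in the control sgLacZ libraries, a narrow range with a coefficient of variation of 7.95%. The epileptic sgLacZ libraries ran from 50.4 to 189 CPM with a median of 98.9, and the epileptic sgKcna1 libraries from 88.6 to 209 with a median of 118. Both epileptic groups thus reached below and above all of the controls. The log2 fold change was -0.12 (SE 0.25, 95% interval -0.66 to 0.41) for epileptic sgLacZ against control (edgeR quasi-likelihood, Benjamini-Hochberg adjusted p = 0.751). It was 0.23 (SE 0.24) for epileptic sgKcna1 against epileptic sgLacZ (adjusted p = 0.58, edgeR) and 0.11 (SE 0.25) against control (adjusted p = 0.935).

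C1qb, the B chain, had 53.3, 46.3, 59.9, 55.5 and 58.6 CPM in the control libraries. The epileptic sgLacZ libraries ran from 44.7 to 89.7 with a median of 74.4, with 4 of 6 above every control and 1 below. The epileptic sgKcna1 libraries ran from 37.9 to 89.5 with a median of 63.6, again with 4 of 6 above every control and 1 below. On the log2 scale epileptic sgLacZ differed from control by 0.38 (SE 0.19, interval -0.04 to 0.79), the epileptic groups by -0.13 (SE 0.18) and epileptic sgKcna1 from control by 0.25 (SE 0.19) (edgeR adjusted p = 0.173, 0.701 and 0.801).

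C1qc, the C chain, had 71.5, 65.7, 63.9, 64.8 and 67.8 CPM in the control libraries, the least variable of the 7 genes there. The epileptic sgLacZ libraries ran from 42.0 to 102 with a median of 69.9, and the epileptic sgKcna1 libraries from 65.7 to 94.2 with a median of 74.3. Control values sat in the middle of the epileptic sgLacZ values and at the lower end of the epileptic sgKcna1 values. Epileptic sgLacZ differed from control by 0.08 (SE 0.17) on the log2 scale, epileptic sgKcna1 from epileptic sgLacZ by 0.14 (SE 0.16) and from control by 0.22 (SE 0.17), with edgeR adjusted p = 0.766, 0.631 and 0.803.

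The C1q chains form 1 protein, but their reads did not stay in a fixed proportion. The ratio of C1qa to C1qb reads was 2.48, 2.58, 1.78, 2.07 and 2.06 in the control libraries. It ran from 1.13 to 2.14 (median 1.41) among epileptic sgLacZ libraries and from 1.35 to 5.52 (median 1.70) among epileptic sgKcna1 libraries. The lowest ratio was in epileptic sgLacZ replicate 4 and the highest in epileptic sgKcna1 replicate 12, which also had the lowest and the highest shares of unmapped reads. On the log2 scale the control ratio averaged 1.12 ± 0.22 (SD, n = 5), the epileptic sgLacZ ratio 0.55 ± 0.31 (SD, n = 6) and the epileptic sgKcna1 ratio 0.97 ± 0.75 (SD, n = 6), with no test made between groups. Across 17 libraries, in a relation looked for after the data were seen, this log2 ratio rose with the percent of unmapped reads (Pearson r = 0.945, Spearman rho = 0.902, permutation p = 1e-05 for each, the smallest that the resamples can give). Adjusted over 10 relations the p-values were 5e-05 and 0.0001. Without epileptic sgKcna1 replicate 12 and epileptic sgLacZ replicate 4, which are farthest from the median share, r was 0.837, and after subtracting group means over all libraries it was 0.951.

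Within the epileptic sgLacZ libraries r was 0.842 (exact permutation p = 0.0347, rho = 0.886, exact p = 0.0333), and 0.71 without the 2 farthest. Within the epileptic sgKcna1 libraries r was 0.993 (exact permutation p = 0.00694, rho = 0.943, exact p = 0.0167), and 0.627 without the 2 farthest, so replicate 12 sets much of that value. Over the 6 within-group relations the adjusted p-values were 0.0416 for r and 0.05 for rho in both groups, and the 5 control libraries were too few. The ratio of C1qb to C1qc fell with the share (r = -0.917, permutation p = 1e-05, rho = -0.836, permutation p = 7e-05). Within epileptic sgLacZ its r was -0.628 (exact permutation p = 0.185, adjusted 0.185, rho = -0.886, exact p = 0.0333) and within epileptic sgKcna1 -0.974 (exact permutation p = 0.0319, adjusted 0.0416), where rho was -0.486 (exact p = 0.356). The ratio of C1qa to C1qc rose with the share (r = 0.862, permutation p = 5e-05, adjusted 0.000167), with r = 0.657 without the 2 farthest libraries. Within epileptic sgLacZ its r was 0.903 (exact permutation p = 0.0167, adjusted 0.0416). Within epileptic sgKcna1 it was 0.92 (exact permutation p = 0.0264, adjusted 0.0416, rho = 0.771, exact p = 0.103), but -0.214 without the 2 farthest. Among single chains, the C1qa level followed the share (r = 0.818, permutation p = 0.00032, adjusted 0.0008, and r = 0.591 without the 2 farthest libraries), whereas C1qb (r = -0.349, permutation p = 0.171, adjusted 0.244) and C1qc (r = 0.536, permutation p = 0.0356, adjusted 0.0712) did not pass adjustment. An r at least as far from 0 was found for 15.4% of all tested genes in the case of C1qa, 67.8% for C1qb and 49.2% for C1qc, and the median distance over all genes was 0.53. The longest transcripts of the chains are alike in length and in GC content (59.5% for C1qa, 57.4% for C1qb and 57.5% for C1qc). With the unmapped share as a covariate, the C1qa log2 fold change of epileptic sgLacZ against control turned from -0.12 to 0.15 and that between the epileptic groups from 0.23 to -0.16, neither being called.

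**Figure D2:**
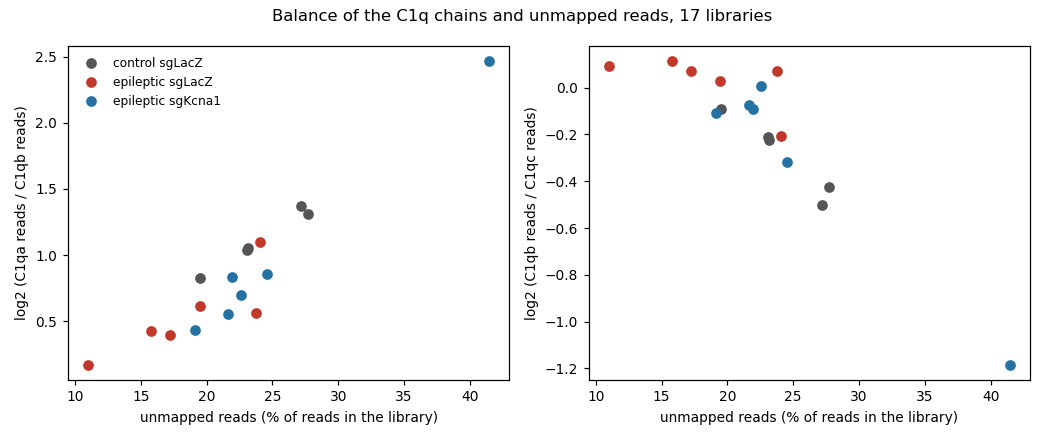
The log2 ratio of C1qa to C1qb reads (left) and of C1qb to C1qc reads (right) against the percent of unmapped reads, 1 point for each of 17 libraries, coloured by group. The left ratio rises from 0.17 at 11.0% unmapped to 2.47 at 41.5% and the right one falls to -1.18.

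The summed level of the 3 chains moved with that of 16 microglia markers, all of which were tested. The marker sum ran from 560 to 591 CPM in control, from 460 to 757 in epileptic sgLacZ and from 598 to 717 in epileptic sgKcna1 libraries. Across 17 libraries r was 0.918 (permutation p = 2e-05, rho = 0.811, permutation p = 0.00016), adjusted to 0.000225 and 0.0012 over 15 relations of members with marker sums. It was 0.862 without the 2 libraries farthest on the marker sum and 0.924 after subtracting group means. The C1q sum, whose genes are not among the 16 markers, equalled 41.7% ± 1.19 (SD, n = 5) of the marker sum for control libraries. This ratio was 40.6% ± 6.77 for epileptic sgLacZ (SD, n = 6) and 41.7% ± 5.32 for epileptic sgKcna1 (SD, n = 6). The ranges of this ratio overlapped, and a change in the number of microglia cannot be told apart from a change in RNA per cell in bulk tissue. Of the markers themselves, Csf1r, the receptor for a microglial growth factor, rose by 0.38 on the log2 scale and Siglech, a microglial lectin, fell by 0.49 in epileptic sgLacZ against control (edgeR adjusted p = 0.0356 and 0.0414), while the median over the 16 was -0.02. Of all tested genes 11.0% were called in that comparison. Reads inside overlapping genes are lost for Csf1r, whose strand counts add up to 1.37 times its unstranded count. The neutrophil markers were nearly silent, 5 of 6 failing the filter on low counts.

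C4b, which encodes complement C4 and is cleaved after C1q binds, had 44.3, 47.5, 58.3, 35.8 and 49.4 CPM in the control libraries. The epileptic sgLacZ libraries had 40.8, 96.8, 46.1, 82.4, 80.3 and 119 CPM, 4 of 6 above every control. C4b was 32.1, 36.4 and 41.7 CPM in epileptic sgKcna1 replicates 1, 2 and 3, and 83.6, 115 and 89.8 CPM in replicates 10, 11 and 12. Of these libraries, 3 lay above every control and 1 below. The values left a gap, since 10 libraries lay between 32.1 and 58.3 CPM and 7 between 80.3 and 119, the upper set holding 4 epileptic sgLacZ, 3 epileptic sgKcna1 and 0 control libraries. Within epileptic sgKcna1, replicates 1, 2 and 3 also lay entirely below replicates 10, 11 and 12 for C1qa, C1qc, C3 and C3ar1. For C1qb and C5ar1 they overlapped. Nothing states whether these replicate numbers mark a batch, and this was not tested. The log2 fold change was 0.72 (SE 0.32, interval 0.03 to 1.41) for epileptic sgLacZ against control, with an unadjusted p of 0.0384 and an edgeR adjusted p of 0.123, and with sex as a covariate it was 0.69 (unadjusted p = 0.053, edgeR adjusted p = 0.155). It was -0.22 (SE 0.30) between the epileptic groups and 0.49 (SE 0.32, interval -0.19 to 1.18) for epileptic sgKcna1 against control (edgeR adjusted p = 0.683 and 0.771). The near-identical C4a, at a mean of 0.58 CPM, shares sequence with C4b, and reads that map to both are not in these counts, so the level of each is uncertain.

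The libraries high in C4b were also those high in reactive astrocyte markers. The sum of 8 such markers, led by the filament gene Gfap, lay between 361 and 506 CPM in the 10 libraries low in C4b and between 590 and 817 CPM in the 7 high ones. Because the libraries fall into separate sets no pooled correlation is given. Within the 10 low libraries r was 0.522 (permutation p = 0.121, rho = 0.467, permutation p = 0.178), and within the 7 high ones 0.142 (exact permutation p = 0.777, rho = 0.214, exact p = 0.662), neither passing adjustment over the 2 sets (0.243 and 0.777 for r). The sets were drawn on C4b itself, so each r is over a narrowed range of C4b. Of the 8 markers, Gfap and Osmr rose by 0.60 and 0.93 on the log2 scale in epileptic sgLacZ against control (edgeR adjusted p = 0.0447 and 0.0347), where 11.0% of all tested genes were called. The groups did not overlap for Osmr and Serpina3n, as for 4.39% of all genes. The other 6 did not pass, and of those Vim and Cd44 had negative log2 fold changes (-0.05 and -0.16).

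C3, the component at which all complement pathways meet, had 1.57, 1.29, 1.55, 1.67 and 1.83 CPM in the control libraries, from 25 to 37 reads each. The epileptic sgLacZ libraries had 2.76, 3.76, 2.24, 3.30, 4.21 and 4.59 CPM, and each of these 6 lay above all 5 controls. C3 was 0.92, 0.41 and 0.28 CPM in epileptic sgKcna1 replicates 1, 2 and 3, the lowest values of that group. It was 1.57, 4.75 and 1.12 CPM in replicates 10, 11 and 12, and these 6 libraries had from 5 to 114 reads. Of these, 5 lay below every epileptic sgLacZ library and 4 below every control, whereas replicate 11 lay above all libraries of both other groups. The log2 fold change for epileptic sgLacZ against control was 1.14 (SE 0.49, interval 0.09 to 2.19), with an unadjusted p of 0.0319 and an edgeR adjusted p of 0.111. Epileptic sgKcna1 differed from epileptic sgLacZ by -1.18 (SE 0.46, interval -2.17 to -0.19, unadjusted p = 0.0196, edgeR adjusted p = 0.22) and from control by -0.04 (SE 0.50, edgeR adjusted p = 0.987). These comparisons share the epileptic sgLacZ or control libraries and are not independent of each other.

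The epileptic sgLacZ to control difference in C3 passed the threshold when only these 2 groups were fitted (log2 fold change 1.13, edgeR adjusted p = 0.0231), with limma voom and sample quality weights (1.08, adjusted p = 0.042), and without epileptic sgKcna1 replicate 11 (1.14, edgeR adjusted p = 0.0465). The adjusted p over all alternatives ran from 0.0231 to 0.207. Without that library the log2 difference between the epileptic groups was -2.04 (edgeR adjusted p = 0.0572). With only the 11 libraries free of mixed Xist and Ddx3y reads it was -2.18 (edgeR adjusted p = 0.275), where the epileptic sgLacZ to control value was 1.18 (adjusted p = 0.0894). Those 11 libraries lack epileptic sgKcna1 replicates 1, 11 and 12, so both values of the difference leave out replicate 11 and are not separate checks.

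Markers of the choroid plexus, which makes cerebrospinal fluid and is often dissected with the hippocampus, varied among the same libraries. All 6 of these markers were detected, and their sum, nearly all Ttr, lay between 1202 and 12537 CPM in control, 4415 and 11457 in epileptic sgLacZ and 292 and 7837 in epileptic sgKcna1 libraries. All 6 had a positive log2 fold change in epileptic sgLacZ against control (median 0.57) and all 6 a negative one between the epileptic groups (median -0.95), 0 of 6 passing in either. Across 17 libraries the r of C3 with this sum was 0.569 (permutation p = 0.0178, adjusted 0.0408, rho = 0.588, permutation p = 0.0152), but only 0.295 without epileptic sgKcna1 replicates 1 and 2, on which it rests. With the reactive astrocyte sum the r of C3 was 0.655 (permutation p = 0.00382, adjusted 0.0143, rho = 0.679, permutation p = 0.00385, adjusted 0.0192), 0.589 without epileptic sgLacZ replicates 7 and 9 and 0.64 after subtracting group means. The reactive astrocyte sum is split between the sets of libraries described for C4b, at 361 to 506 and 590 to 817 CPM. The r of C3 with it spans both sets, and no r within a set was computed for C3. The part of choroid plexus tissue or of reactive astrocytes in the C3 values was not tested.

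**Figure D3:**
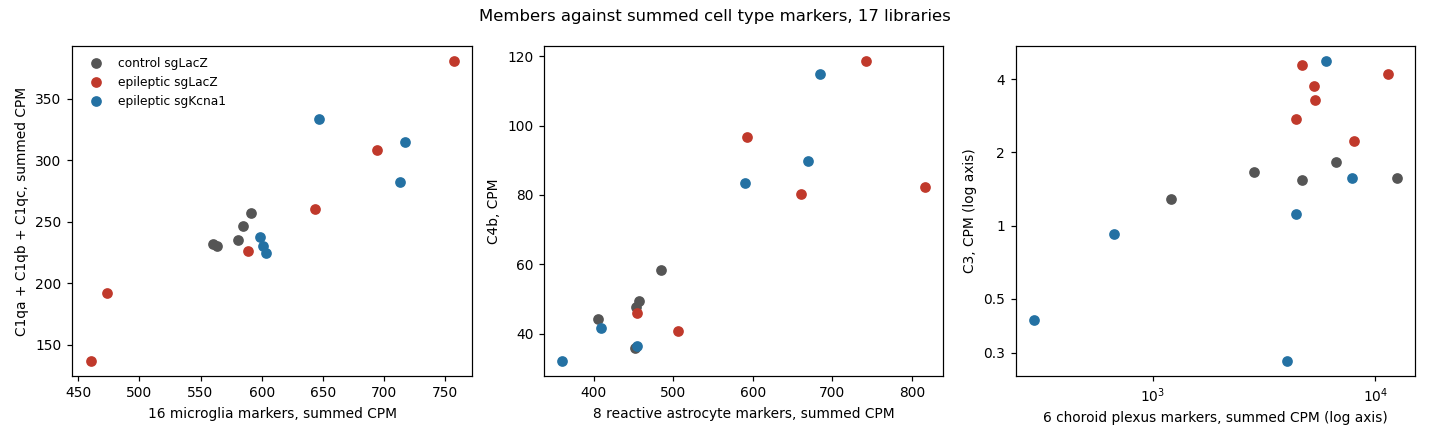
Summed CPM of C1qa, C1qb and C1qc against 16 microglia markers (left), C4b CPM against 8 reactive astrocyte markers (middle) and C3 CPM against 6 choroid plexus markers on log axes (right), 1 point for each of 17 libraries. The C1q sum climbs from 137 to 381 CPM with the microglia markers, C4b falls into a low and a high set of libraries, and C3 runs from 0.28 to 4.75 CPM.

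The receptors were low, and all groups overlapped for both. C3ar1, which binds the C3a fragment, had 3.30, 2.33, 1.46, 2.47 and 2.65 CPM in the control libraries, a range of 1.57 to 3.39 with a median of 2.08 in epileptic sgLacZ and a range of 1.23 to 2.62 with a median of 2.09 in epileptic sgKcna1. In the same order of comparisons it differed on the log2 scale by -0.12 (interval -0.69 to 0.45), -0.16 (interval -0.71 to 0.39) and -0.28 (interval -0.85 to 0.29), with edgeR adjusted p = 0.778, 0.731 and 0.822. C5ar1, which binds C5a, had 0.97, 0.83, 1.21, 1.87 and 0.88 CPM in the control libraries, a range of 0.41 to 1.88 with a median of 1.22 in epileptic sgLacZ and a range of 0.56 to 1.40 with a median of 1.14 in epileptic sgKcna1. With only 10 to 38 reads per library, its log2 fold changes of -0.02, -0.02 and -0.04 had intervals reaching from -0.80 to 0.76, -0.77 to 0.73 and -0.83 to 0.75 (edgeR adjusted p = 0.975, 0.976 and 0.982). Any difference within these intervals remained compatible with the counts of these libraries.

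**Figure D4:**
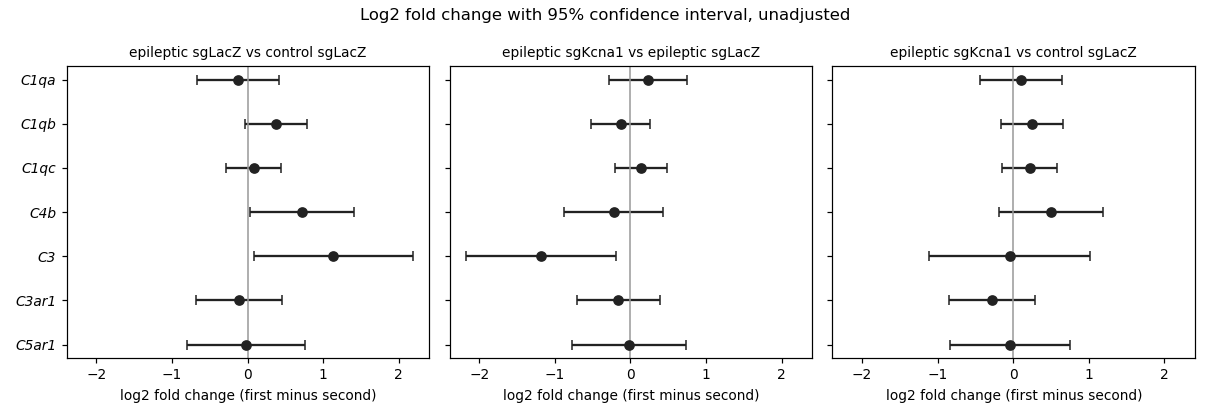
Log2 fold change, first group minus second, of the 7 complement genes in the 3 comparisons, with unadjusted 95% confidence intervals as bars. Only C3 and C4b for epileptic sgLacZ against control, and C3 between the epileptic groups, have intervals that leave out 0, and none of these passed adjustment.

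Among pairs of the 7 genes, 21 in all, C1qa and C1qc had the highest r over all 17 libraries (r = 0.868, permutation p = 3e-05, adjusted 0.00063, rho = 0.779, permutation p = 0.00044, and r = 0.796 without the 2 libraries farthest on C1qa). C1qa and C1qb had an r of 0.181 (permutation p = 0.492, rho = 0.201, permutation p = 0.436), and 0.435 without the same 2 libraries. C1qb and C1qc had an r of 0.567 (permutation p = 0.0172, adjusted 0.0722, rho = 0.505, permutation p = 0.0398), and 0.816 without epileptic sgKcna1 replicate 12 and epileptic sgLacZ replicate 8, so the order of these pairs depends on the extreme libraries. The genes most like each member over the 17 libraries, among 11379 genes with a mean of at least 5 CPM, are given as a description. The mean of the C1q chains was most like Ctss, a lysosomal protease that is also one of the 16 microglia markers (r = 0.945), then Ube2l6 (0.927), known as interferon-responsive. C3 was most like Pdgfd (0.877), Cd74 (0.857) and H2-Ab1 (0.836), of which Cd74 and H2-Ab1 act in antigen presentation. C4b was most like Irf9 (0.916), Ddx58 (0.872) and Dtx3l (0.87), with Irf9 a factor of interferon signalling and Ddx58 a sensor of viral RNA. C3ar1 was most like Fam107b (0.851), Cd38 (0.819) and Arpc1b (0.776), and C5ar1 like Dhrs3 (0.765), Cdk5rap1 (0.708) and Efemp1 (0.678). These r values include the shared influence of library and group, and those of C4b span its low and high sets of libraries.

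Of 53 further complement genes, 52 were in the counts and 35 were tested, 3 of which rose and 0 fell in epileptic sgLacZ against control, where 11.0% of all tested genes were called, and 9 had an unadjusted p under 0.05, as did 34.7% of all genes. Their median log2 fold change was 0.09. The 35 include 8 genes of CUB and sushi proteins, which are complement-like. Without those 8, 27 were tested, of which 1 rose and 0 fell, and 4 had an unadjusted edgeR p under 0.05. The median of the 27 was -0.11, beside 0.02 over all genes. In edgeR none of the 35 passed between epileptic sgKcna1 and epileptic sgLacZ or control. There 8 and 3 of them had an unadjusted p under 0.05, beside 19.2% and 6.77% of all genes. Itgb2, the integrin beta chain of the receptors for cleaved C3, rose from 4.58 ± 0.48 CPM (SD, n = 5) to 7.64 ± 1.77 (SD, n = 6), without overlap of the groups, as for 4.39% of all genes. Its log2 difference was 0.74 with an SE of 0.19 (edgeR adjusted p = 0.0335). Itgam, its partner in complement receptor 3, gave -0.25 (SE 0.30, edgeR adjusted p = 0.566), and was not called. Cr1l was placed by name in the list of other complement receptors, which does not establish that it acts as one. It had the highest mean over all 17 libraries among the 7 genes tested from that list (14.2 CPM, beside 13.7 for Itgam). Its log2 difference was 0.22 (SE 0.11, edgeR adjusted p = 0.154).

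Sez6 and Susd4, neuronal proteins with complement-like CUB or sushi domains, rose by 0.71 (SE 0.21) and 0.43 (SE 0.13) on the log2 scale in epileptic sgLacZ against control (edgeR adjusted p = 0.0405 and 0.0424), and both overlapped between the groups. These calls and that of Itgb2 were lost without control replicate 13, 14, 16 or 23 or epileptic sgLacZ replicate 4, 7 or 9, where no gene at all passed. In those fits 4557 to 5793 genes still had an unadjusted edgeR p under 0.05, and values of single genes in them are not given here. Of the list of 8 that holds Sez6 and Susd4, 2 were called and 5 had an unadjusted p under 0.05, beside 11.0% and 34.7% of all genes. All 8 of 8 had a positive fold change, with a median of 0.44 beside 0.02 over all genes, and the most abundant member Sez6l2 gave 0.34 (edgeR adjusted p = 0.0673). Clu, the clusterin gene and a fluid-phase inhibitor, was the most abundant of 10 regulators tested at a mean of 1409 CPM, and gave 0.12 (edgeR adjusted p = 0.427). C1qbp, whose product binds C1q globular heads, and Cd59b gave -0.34 and -0.64 (edgeR adjusted p = 0.0879 and 0.233). The C1 proteases and C2, which link C1q to C3, were low, with means of 2.86 CPM for C1ra, 0.85 for C1s and 1.05 for C2, and those of C1s and C2 lose reads to overlapping genes. Their log2 fold changes were 0.32, -0.57 and -0.76 (edgeR adjusted p = 0.416, 0.28 and 0.297). In the lectin pathway Colec12, Masp1 and Colec11 gave -0.11, 0.09 and 0.49, and 6 of 9 genes were under the filter. In the alternative pathway Cfp, or properdin, gave -0.16 and the other 2 genes, Cfb and Cfd, failed the filter. Of the genes under it, Cfb and the lectin pathway genes Masp2 and Fcna lose reads to overlapping genes. Their strand counts add up to 4.71, 70.0 and 2.05 times the unstranded count, so failing the filter does not show that they were silent. In the terminal pathway 5 of 7 genes failed it, and Hc, which encodes C5, and C8g gave -0.32 and 0.06.

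**Figure D5:**
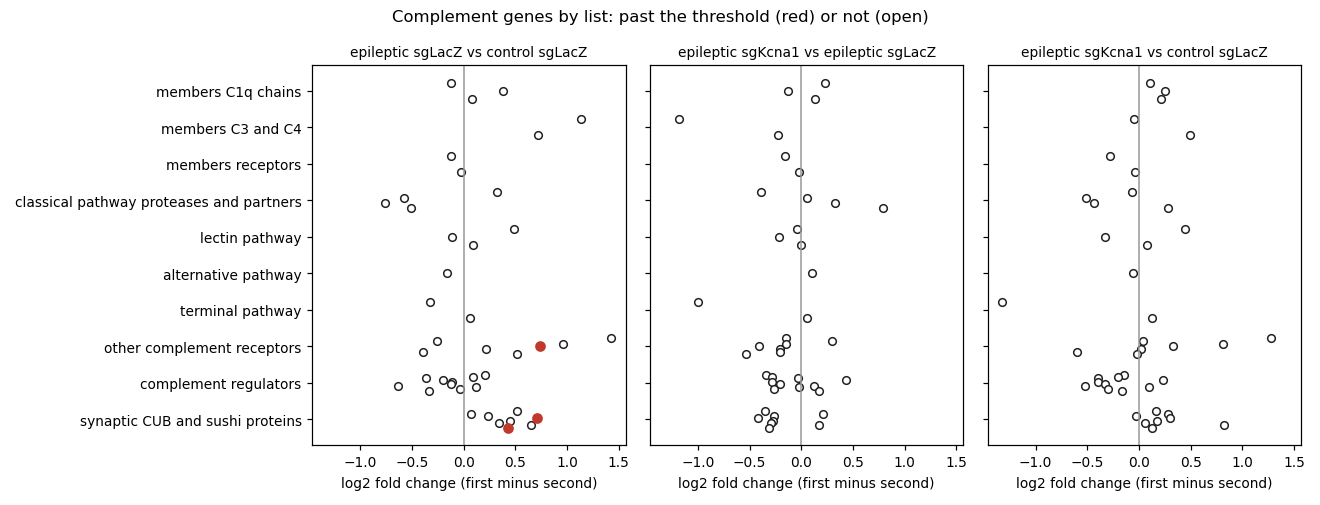
Log2 fold change, first group minus second, of each tested complement gene by list in the 3 comparisons, red where the edgeR adjusted p was under 0.05 and open otherwise. The red points are Itgb2, Sez6 and Susd4 in epileptic sgLacZ against control, and no other gene of any list shown passed.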

How the data were processed

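RNA-seq libraries of 17 mouse hippocampi were grouped by their labels. The authors aligned reads to mm10 with STAR 2.7 and deposited raw counts of reads per gene, without normalization, in 3 strand columns. The unstranded column was used, since forward and reverse reads were nearly equal in number. Multi-mapped reads are not in it. The labels name an unstranded kit and the study's methods a stranded one. The annotation release is not given in the sources used here.

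The tests used edgeR 4.0.16 under R 4.3.3: filterByExpr left 17615 genes, TMM scaled the libraries, and all 17 libraries entered 1 quasi-likelihood fit with no covariate, tested two-sided with Benjamini-Hochberg adjustment at 0.05. DESeq2 1.42.0, limma 3.58.1 and other settings were alternatives. The fit was tested on simulated data, with counts drawn independently for each gene and no shift shared by the genes of a library. That simulation cannot show how far the calls depend on single libraries or on the share of unmapped reads. Libraries of a group differed by more than counting noise. Nothing states that they came from separate animals, so p-values measure the spread between these samples, which may be technical.

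The members and gene lists were chosen with earlier results of these data known, and the relations with unmapped reads and marker sums, the C4b sets and the 11-library alternative after seeing the data. Besides the members, the text names for each complement list the genes past the threshold and the most abundant one, or the 2 with the smallest p if none passed. For cell type lists it gives the summary and abundant members, and for likeness the 3 genes with the highest r, of which 1 is not reported here. Itgam, C4a, Csf1r, Siglech and Osmr were named outside this rule, after their values were seen. Lengths and GC come from mm9 transcripts. Depths appear in the report.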

Additional observations from a re-analysis of the deposited data

Results flagged for a closer look

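Among 30 sets of values, one for each gene or C1q ratio within a group, 4 had a highest or lowest library far from the rest, judged by Dixon's gap (the distance to the nearest library divided by the whole range). At the 95% level a few such sets arise by chance. C5ar1 in epileptic sgKcna1 replicate 3 was 0.56 CPM, or 10 reads, where the other 5 libraries lay at 1.12 and above (gap 0.752). The log2 ratio of C1qa to C1qb in epileptic sgKcna1 replicate 12 was 2.47 (gap 0.794), and that of C1qb to C1qc in the same library was -1.18 (gap 0.728). In epileptic sgLacZ replicate 5 the log2 ratio of C1qb to C1qc was -0.21 (gap 0.738), the lowest of its group, with 24.1% of reads unmapped, the highest share of its group. The part of unmapped reads in these ratios was not tested beyond the relation given above.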

How the results depend on the processing

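No paired analysis was possible because no replicate number is shared between groups. Of 546 recomputed log2 fold changes of the members, 513 kept direction and side of the threshold, 3 newly passed it, all C3 for epileptic sgLacZ against control (1.13 with only the 2 groups, 1.08 with voom, 1.14 without epileptic sgKcna1 replicate 11; 1 member called in each), and 30 changed sign, none of them called. The 11-library alternative was chosen after seeing the data.

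For epileptic sgLacZ against control, genes past the threshold numbered 3538 with DESeq2, 7301 with limma voom and quality weights, 3045 with only the 2 groups, 428 with the unmapped share and 516 with sex as a covariate, 0 with the 11 libraries free of mixed reads (6540 with an unadjusted p under 0.05, edgeR), and 0 to 5526 leaving out 1 library. That count was 0 without control replicate 13, 14, 16 or 23 or epileptic sgLacZ replicate 4, 7 or 9. The calls of Itgb2, Sez6, Susd4 and the markers were lost in each of these fits, as was every other call. The cause was not tested. Between the epileptic groups it was 114 with DESeq2, 12 with voom, 1 without the filter and 0 to 1508 leaving out 1 library, the highest without epileptic sgLacZ replicate 5, with 5 without epileptic sgKcna1 replicate 11 and 1 without control replicate 13. For epileptic sgKcna1 against control it was 38 with DESeq2, 71 with voom, 266 with the unmapped covariate and 0 to 14 leaving out 1 library, the highest without replicate 12.

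Signs that turned in epileptic sgLacZ against control were C1qa 0.15, C3ar1 0.091 and C5ar1 0.040 with the unmapped covariate. Leaving out 1 library gave C1qa -0.36 to 0.023 (highest without epileptic sgLacZ 4), C1qc -0.057 to 0.19 (lowest without 5), C3ar1 -0.27 to 0.016 (highest without control 13) and C5ar1 -0.22 to 0.21 (positive without control 16 or epileptic sgLacZ 4 or 6, at 0.21, 0.16 and 0.09). Between the epileptic groups they were C1qb 0.023 and C5ar1 0.046 with voom, C1qa -0.16 and C1qc -0.015 with the unmapped covariate, and C5ar1 0.075 with the 11 libraries and -0.20 to 0.18 leaving out 1 (positive without epileptic sgLacZ 7, 8 or 9 or epileptic sgKcna1 3). In epileptic sgKcna1 against control they were C1qa -0.046 with voom, -0.0031 with the unmapped covariate, -0.18 with the 11 libraries and -0.10 to 0.19 leaving out 1 (lowest without epileptic sgKcna1 12), C5ar1 0.040 with the 11 libraries and -0.14 to 0.19 leaving out 1 (positive without control 16 or epileptic sgKcna1 3), and C3 -0.90 to 0.17 leaving out 1 (lowest without epileptic sgKcna1 11, positive without control 23 or epileptic sgKcna1 1, 2, 3 or 12). C3 and C5ar1 had the fewest reads, at 5 to 114 and 10 to 38 per library, and the part of depth in their spread was not tested.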

Other observations

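Other cell type lists gave values not described above. Of 8 astrocyte markers, Aldh1l1 rose by 0.33 on the log2 scale in epileptic sgLacZ against control (edgeR adjusted p = 0.0391) and the other 7 did not pass. Of all tested genes 11.0% passed there. Aldh1l1 was chosen after its values were seen, and its strand counts add up to 1.28 times the unstranded count. Mrc1, the most abundant of 8 border macrophage and monocyte markers at a mean of 2.99 CPM, gave -0.63 (edgeR adjusted p = 0.1), and 0 of these 8 passed. In epileptic sgKcna1 against control, Hc, which encodes C5, gave -1.33 (edgeR adjusted p = 0.664), at group means of 0.36 and 0.88 CPM.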
